A study of Mus musculus with 14 samples.

Results

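The comparison described here sets whole lungs of mice without the tetraspanin CD151 against whole lungs of mice without the tetraspanin CD9. It was made of the 5 samples titled CD151KO and the 5 samples titled CD9KO, which are 10 of the 14 samples in all, and every probe set of the arrays was used. The other 4 samples are wild type lungs, which entered no test here and are given only as levels. All animals were C57BL/6, lungs were taken at 20 weeks of age, and total RNA from the homogenised organ was labelled with biotin for 1-colour Affymetrix arrays. The labels name no treatment, and the sources used here do not give the deleted part of either gene, the origin of each line or the time of day of collection. The labels also do not state that each sample is a different mouse, so every p-value is set against the variation among these samples alone, some or all of which may be technical.

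Tetraspanins are small proteins that cross the cell membrane several times and gather integrins, proteases, growth factor receptors and each other into membrane domains. CD151 binds most firmly to the integrins that hold epithelial and endothelial cells to laminin in the basement membrane. CD9 is found on nearly every cell type, associates with immunoglobulin superfamily proteins such as EWI-2 and with metalloproteinases, and is known for its part in sperm-egg fusion and in keeping macrophages from fusing. The comparison asks where lungs of the line without CD151 and of the line without CD9 differ in RNA, with 5 arrays on each side. Genotype cannot be told apart from the origin of each line or the time of collection.

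Both targeted genes matched the labels. Cd151 (chromosome 7) read 1065, 1072, 1027, 1064 and 1061 on CD151KO arrays 1 to 5 and 5215, 4912, 5062, 4867 and 4880.2 on CD9KO arrays 1 to 5, in units of linear signal. No CD151KO array came near any CD9KO array, and the wild type mean was 5329.6 ± 372 (SD, n = 4). The difference was -2.22 on the scale log2(signal + 16), with an SE of 0.029 and an adjusted p of 2.76e-13 by limma. Of the 6 Cd151 probe sets, 4 were 4.71 to 5.35 times lower in CD151KO, and the other 2 were weak everywhere (48.1 against 56.8, and 129 against 143) and did not pass. Cd9 (chromosome 6) read 7861, 8501, 8135, 8185 and 8476 in CD151KO and 638, 684, 614, 649.5 and 749 in CD9KO, again without overlap. It was 12.1 times higher in CD151KO (log2 difference 3.60, SE 0.049, adjusted p = 2.76e-13), where its level of 8232 ± 265 lay beside the wild type's 8096 ± 69.4. The sources used here do not say whether any probe set lies in the deleted part.

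The arrays were those of lung. The surfactant gene Sftpc ranged from 28308 to 29212, the alveolar type 1 marker Ager from 21086 to 23419, and the club cell marker Scgb1a1 from 28677 to 29667 over the 10 arrays. Krt13 (oesophagus), Rag1 and Dntt (thymus) and Myh4 (skeletal muscle) lay below the level filter, while Alb (liver) read 59.3 to 234 in CD151KO and 54.0 to 71.5 in CD9KO and did not pass. Array medians differed little (84.1 to 85.9). The first principal component of the tested genes, with 41.7% of the variance, placed CD151KO arrays 1 to 5 at 19.2, 11.4, 7.90, 2.29 and 1.05 and the CD9KO arrays between -11.9 and -5.97 (exact two-sided permutation test, p = 0.00794, the smallest that 252 arrangements can give; 0.0556 after Benjamini-Hochberg adjustment over 7 array measures). CD151KO arrays 1 and 2 thus stood farthest from the CD9KO arrays, and the named genes that lost their call without both are given in each paragraph below. The signal of 18S was 1082 ± 170 (SD, n = 5) in CD151KO and 894 ± 105 (SD, n = 5) in CD9KO (exact permutation p = 0.0873), and the Gapdh 3'/5' ratio, a sign of RNA integrity, was 0.869 ± 0.013 (SD, n = 5) and 0.856 ± 0.022 (SD, n = 5), respectively (exact permutation p = 0.278).

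Of 12987 genes tested, 1497 (11.5%) passed at an adjusted p under 0.05 with limma. More of them were higher in CD151KO (917, or 7.06% of the genes tested) than lower (580, or 4.47%). Differences were small: the median size among those that passed was 0.23 on the log2 scale, the median over all genes tested was 0.0016, and 66 genes (0.508%) passed with a change of at least 1.5-fold, 35 of them higher and 31 lower in CD151KO. In 1381 genes (10.6%) the 5 CD151KO values and the 5 CD9KO values did not overlap, and 1083 of the genes that passed were among these. The wild type mean lay between both knockout means in 1061 of the genes that passed, above both in 239 and below both in 197. These genes were picked for a gap between the knockouts, which favours a wild type mean between them. The same count was not made over all genes tested, so it cannot show which way either knockout moved from wild type. The number that passed fell to 893 without CD151KO 1, 962 without CD151KO 2, 967 without CD151KO 3, 979 without CD9KO 3 and 727 without CD9KO 5, and to 557 (333 higher, 224 lower) without both CD151KO 1 and 2. Of the 131 genes named with values here that passed, 85 kept their call whichever single array was left out. Where a named gene lost it, the number of the 10 omissions that ended the call is given.

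**Figure D1:**
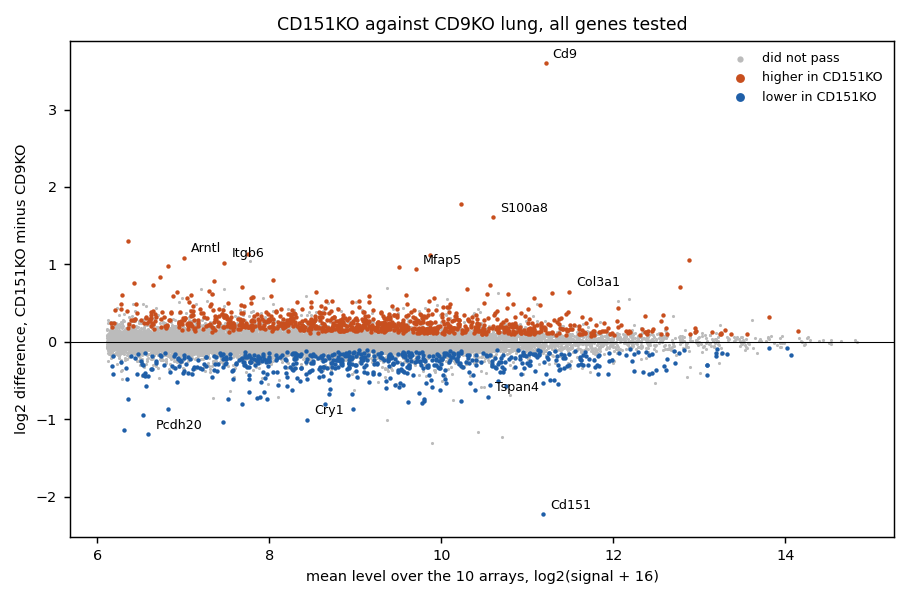
Log2 difference (CD151KO minus CD9KO) of each of the 12987 genes tested against its mean level, log2(signal + 16), over the 10 arrays. Orange points are the 917 genes that passed and were higher in CD151KO, blue points the 580 that were lower, grey points did not pass; Cd9 at 3.60 and Cd151 at -2.22 lie far outside the rest.

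Of the 49 gene lists described here, those of the circadian clock had the largest shares of members that passed. Of 12 core clock genes tested, 9 passed, 2 higher and 7 lower in CD151KO, with a median of -0.27. Of 13 clock output genes, 7 passed (53.8%), every one lower in CD151KO, with a median of -0.49. The clock is a loop in which CLOCK and BMAL1 (the product of Arntl) drive transcription through E-box sequences, PER and CRY proteins switch them off, and ROR and REV-ERB receptors set the level of Arntl itself through their own element. Clock gene levels follow the time of day, which the labels give for no sample. The output factors DBP, TEF and HLF act on a further sequence, the D-box.

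To show where these sequences lie in the clock genes tested, whether or not they passed, promoter windows of 300 bases (250 before to 50 after the start of transcription) from RefSeq were searched on both strands for 3 motifs: the E-box CACGTG, the D-box TTATGTAA and the ROR element TAGGTCA. Of the 25 genes of both lists, 21 matched the promoter table, with 31 windows. The E-box was found in 8 of these windows (25.8%) and in 7.15% of all 32851 windows, the D-box in 1 (3.23%, against 0.938% of all) and the ROR element in 2 (6.45%, against 2.61%). The 4 windows below are examples that each hold one of the motifs and belong to a gene that passed. E-boxes also lay in windows of Lonrf3, Per1 and Tef, which passed too, and of Bhlhe41 and Fkbp5. The ROR element also lay in a window of Nfil3. Capitals mark the motif, coordinates are GRCm38.p6, and each sequence is written 5' to 3' on the gene's strand. A match is a description of these letters, not a measured binding site.
Ciart, chr3:95882179-95882478, minus strand, E-box: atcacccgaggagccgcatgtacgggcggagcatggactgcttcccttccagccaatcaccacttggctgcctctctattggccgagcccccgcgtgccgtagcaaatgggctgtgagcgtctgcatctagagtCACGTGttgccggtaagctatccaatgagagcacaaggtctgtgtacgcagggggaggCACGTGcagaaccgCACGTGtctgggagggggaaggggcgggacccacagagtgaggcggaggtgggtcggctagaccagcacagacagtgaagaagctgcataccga
Cry1, chr10:85185005-85185304, minus strand, E-box: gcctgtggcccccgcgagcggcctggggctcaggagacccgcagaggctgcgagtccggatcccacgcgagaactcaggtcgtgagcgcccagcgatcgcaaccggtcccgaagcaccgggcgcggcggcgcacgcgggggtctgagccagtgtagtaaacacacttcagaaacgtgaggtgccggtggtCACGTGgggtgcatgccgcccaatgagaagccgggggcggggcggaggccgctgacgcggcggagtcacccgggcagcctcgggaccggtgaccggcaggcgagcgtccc
Per3, chr4:151044616-151044915, minus strand, D-box: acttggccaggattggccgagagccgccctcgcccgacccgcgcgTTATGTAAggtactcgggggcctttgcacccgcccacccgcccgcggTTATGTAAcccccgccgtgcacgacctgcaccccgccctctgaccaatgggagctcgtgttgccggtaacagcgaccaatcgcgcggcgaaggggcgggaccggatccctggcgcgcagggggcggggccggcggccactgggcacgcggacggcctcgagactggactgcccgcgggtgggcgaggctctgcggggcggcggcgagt
Arntl, chr7:113207261-113207560, plus strand, ROR element: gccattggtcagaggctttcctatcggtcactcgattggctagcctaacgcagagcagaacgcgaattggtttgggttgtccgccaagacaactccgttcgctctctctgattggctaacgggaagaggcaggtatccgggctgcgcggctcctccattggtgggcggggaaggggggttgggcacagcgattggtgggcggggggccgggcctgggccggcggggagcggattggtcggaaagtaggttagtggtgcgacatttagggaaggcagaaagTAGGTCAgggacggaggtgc
The Ciart window holds 3 E-boxes, the Cry1 window 1, the Per3 window 2 D-boxes and the Arntl window 1 ROR element.

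Arntl, the positive arm of the loop and the gene with the ROR element above, read 244, 209, 113, 137 and 185 on CD151KO arrays 1 to 5 and 70.8, 82.1, 73.5, 62.3 and 73.2 on CD9KO arrays 1 to 5. Every CD151KO value lay above every CD9KO value, and the difference was 1.09 (SE 0.16, adjusted p = 0.00345). The second Arntl probe set, at 69.8 in CD151KO against 59.2 in CD9KO, differed by 0.18 and did not pass. Its partner Clock was also higher, 599 ± 18.5 against 495 ± 24.4 (SD, n = 5 each; log2 difference 0.27, SE 0.040, adjusted p = 0.00373); with all 14 arrays in the fit its adjusted p was 0.088. The wild type level of Arntl, 71.2 ± 6.83 (SD, n = 4), was like that of CD9KO.

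The negative arm went the other way. Cry1, which carries an E-box in its window, read 149, 298, 199, 279 and 252 in CD151KO and 474, 426, 454, 531 and 493 in CD9KO (log2 difference -1.0, SE 0.15, adjusted p = 0.00348). The groups did not overlap, but CD151KO 1 was the lowest of all. Per2, another repressor of the loop, read 307, 657, 624, 737 and 723 against 1101, 1029, 1015, 969.6 and 939 (log2 difference -0.77, SE 0.19, adjusted p = 0.0263). Here CD151KO 1 stood far below its own group, and the call was lost without CD9KO 1, CD9KO 3 or CD9KO 5 (adjusted p = 0.0527 to 0.0542). The remaining repressors Per1, Per3 and Cry2 were lower by smaller amounts, with log2 differences of -0.31 (SE 0.068, adjusted p = 0.0161), -0.39 (SE 0.066, adjusted p = 0.00543) and -0.40 (SE 0.10, adjusted p = 0.0325). The REV-ERB gene Nr1d2 was lower too, 4561 ± 484 against 5919.7 ± 131 (SD, n = 5 each; log2 difference -0.38, SE 0.061, adjusted p = 0.0041), as was the receptor gene Rora at -0.23 (SE 0.062, adjusted p = 0.0351). Per3, Cry2 and Rora were singled out after their values were seen. Cry2 and Rora each lost their call in 7 of the 10 omissions of a single array. Rora lost its call when its probe sets were averaged (adjusted p = 0.0985).

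Ciart, a repressor of CLOCK and BMAL1 whose window holds 3 E-boxes, read 199, 257, 321, 360.0 and 330.1 in CD151KO and 561, 519, 490.2, 525 and 472 in CD9KO (log2 difference -0.80, SE 0.13, adjusted p = 0.00414). Usp2, a deubiquitinase under clock control, read 282, 303, 340.0, 359.9 and 337 and 494, 482, 514, 516 and 496 (log2 difference -0.61, SE 0.059, adjusted p = 0.000449). In both genes all CD151KO arrays lay below all CD9KO arrays. All 3 D-box factors were lower: Tef was lower at -0.49 (SE 0.069, adjusted p = 0.00295), Hlf at -0.57 (SE 0.080, adjusted p = 0.00307) and Dbp at -0.50 (SE 0.11, adjusted p = 0.0145) on the log2 scale. Lonrf3 and Wee1, the kinase that delays entry into mitosis, were lower at -0.48 (SE 0.11, adjusted p = 0.0158) and -0.55 (SE 0.12, adjusted p = 0.0159); Dbp, Lonrf3 and Wee1 were singled out after their values were seen.

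Averaged over the list, the level of the 13 output genes was 8.72 to 9.27 in CD151KO and 9.48 to 9.55 in CD9KO, on the log2 scale, without overlap. The wild type arrays lay between 9.18 and 9.44. Leaving out CD151KO 1 and 2 together left 6 core genes (2 higher, 4 lower) and 6 output genes (all lower), with list medians of -0.20 and -0.38; Per1 (adjusted p = 0.0632), Cry2 (0.0761), Rora (0.116) and Dbp (0.0553) then no longer passed. Leaving out CD9KO 1 or CD9KO 5 also left 6 core genes.

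**Figure D2:**
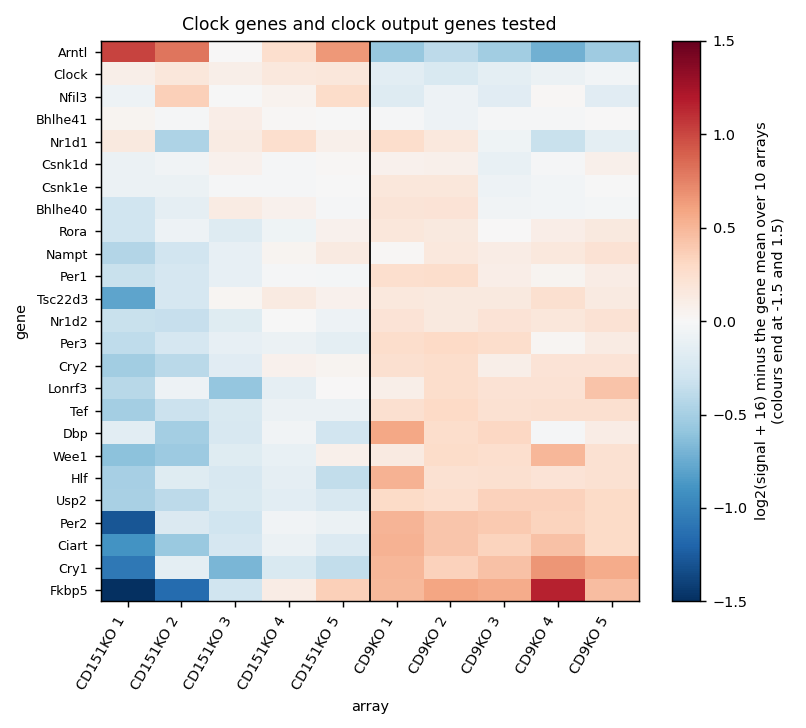
Level of the 25 clock and clock output genes tested on each of the 10 arrays, as log2(signal + 16) minus the gene's mean over the 10 arrays; rows run from the highest to the lowest log2 difference and the line divides CD151KO (left) from CD9KO (right). Arntl and Clock are higher on every CD151KO array than on any CD9KO array, and Per2 and Cry1 are lowest on CD151KO 1.

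Genes of the glucocorticoid response varied widely among the CD151KO arrays. The list shares Per1 with the core clock list, and Fkbp5 and Tsc22d3 with the clock output list. Of its 17 genes tested, 4 passed, all lower in CD151KO: Per1, Nfkbia (the inhibitor of NF-kappa-B, 8797 ± 364 against 9985 ± 458, SD, n = 5 each; log2 difference -0.18, SE 0.038, adjusted p = 0.0124), Sult1a1 at -0.37 (SE 0.10, adjusted p = 0.0397) and Hif3a at -0.23 (SE 0.061, adjusted p = 0.0345). Sult1a1 lost its call in 6 and Hif3a in 7 of the 10 omissions. The list median was -0.27, and none of the 4 passed without both CD151KO 1 and 2, when the median was -0.15. Of the list, 2 passed without CD151KO 2, CD9KO 3 or CD9KO 4, and 7 without CD151KO 5. Nfkbia, Sult1a1 and Hif3a lost their calls without both CD151KO 1 and 2 (adjusted p = 0.0558 to 0.149).

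Among genes of this kind the largest differences did not pass. Fkbp5, a chaperone of the glucocorticoid receptor and one of its direct targets, read 183, 411, 757, 1012 and 1208 on CD151KO arrays 1 to 5 and 1314, 1418, 1385, 2106 and 1294 on CD9KO arrays 1 to 5. All CD151KO values were below all CD9KO values, but the spread among them gave a log2 difference of -1.30 with an SE of 0.41 and an adjusted p of 0.0606. It passed when CD151KO 4 or CD151KO 5 was left out (adjusted p = 0.0302 to 0.0482). Zbtb16, a zinc finger repressor, read 385, 332, 1232, 1923 and 1939.5 against 1956, 1999, 2042, 2159 and 2069 (log2 difference -1.16, SE 0.45, adjusted p = 0.113). Its values on CD151KO 1 and 2 were far below those of CD151KO 4 and 5, which nearly reached the CD9KO level. Fam107a, an actin-associated protein, was lowest on the same arrays, 315, 760.4, 1539.8, 1843 and 2046 against 1947, 2343, 2493, 3872 and 2418 (log2 difference -1.23, adjusted p = 0.0825; passed without CD151KO 5, adjusted p = 0.0492). CD151KO 5 lay above CD9KO 1 in this gene. Zbtb16 and Fam107a had, with Cyp1a1 and Fkbp5, the largest SDs within CD151KO of all genes tested. The wild type arrays varied too, with Fkbp5 at 243, 653, 839.7 and 794 on wild type arrays 1, 3, 4 and 5.

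The neutrophil genes that passed were higher in CD151KO. They were 5 of 12 tested, with a median of 0.35. S100a8, a subunit of calprotectin, read 5362, 4647, 2272, 1545 and 1612 on CD151KO arrays 1 to 5 and 784, 941, 703, 958 and 1009.9 on CD9KO arrays 1 to 5 (log2 difference 1.61, SE 0.32, adjusted p = 0.0107). Its partner S100a9 read 4561, 3868, 1899.9, 1163 and 1330.5 against 609, 673, 484, 670.3 and 761 (log2 difference 1.78, SE 0.34, adjusted p = 0.00909). In both genes the groups did not overlap, CD151KO 1 and 2 were highest, and the CD9KO arrays lay close together. The cytokine gene Il1b read 639, 473, 235, 171 and 204 and 116, 132, 114, 126 and 159.8 (log2 difference 1.14, SE 0.30, adjusted p = 0.0317). The chemokine receptor gene Cxcr2, which draws neutrophils into tissue, was 116 ± 29.6 against 61.9 ± 8.76 (SD, n = 5 each; log2 difference 0.74, SE 0.14, adjusted p = 0.00909), and the G-CSF receptor gene Csf3r was 259.8 ± 94.0 against 145 ± 11.8 (log2 difference 0.71, SE 0.19, adjusted p = 0.0328). In bulk tissue, fewer cells of a type and less RNA per cell cannot be told apart, here and in every list of a cell type.

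Without CD151KO 1 and 2 the same 5 neutrophil genes still passed, but with smaller differences: 1.02 (adjusted p = 0.0059) for S100a8, 1.16 (0.0059) for S100a9 and 0.59 (0.0216) for Il1b. Il1b lost its call in 5 and Csf3r in 8 of the 10 omissions of a single array. The mean level of the list was 8.24 to 8.97 in CD151KO, 7.87 to 8.06 in CD9KO and 8.08 to 8.55 in wild type, so that the CD9KO arrays were the lowest of the 3 groups. Within CD151KO, arrays 1 and 2 had the most S100a8 and the least Fkbp5 and Zbtb16. The part of one in the other was not tested. Among the wild type arrays, number 1 had the most S100a8 (2588 against 955.5 to 1319) and the least Fkbp5. Of the list, 3 genes passed without CD151KO 2, CD9KO 1, CD9KO 3, CD9KO 4 or CD9KO 5.

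**Figure D3:**
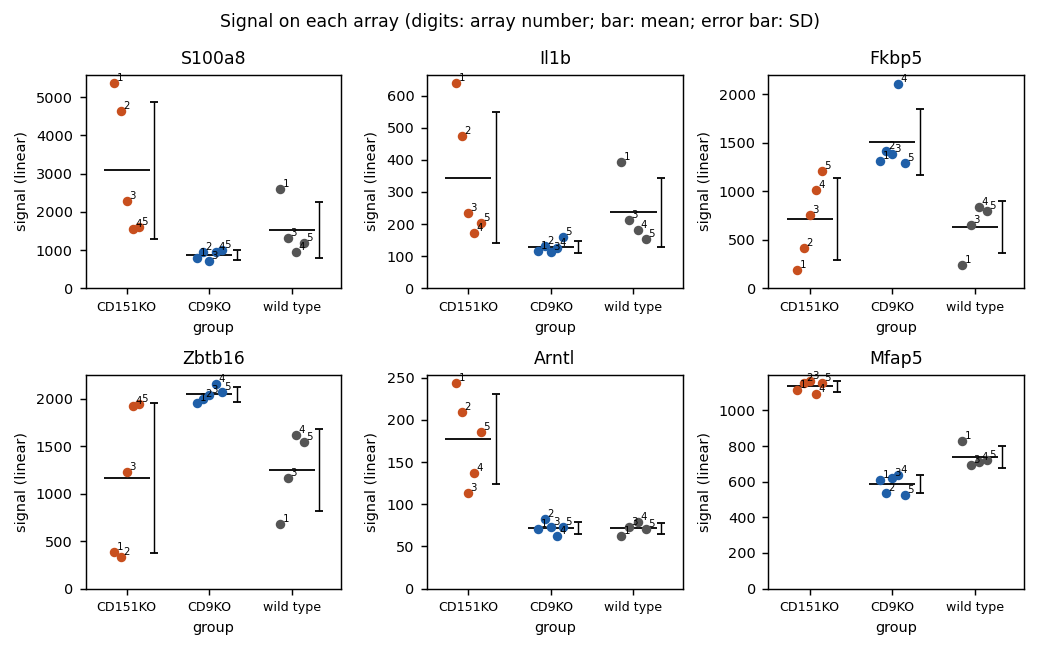
Linear signal of 6 genes on each array, grouped as CD151KO (n = 5), CD9KO (n = 5) and wild type (n = 4); digits give the array number, horizontal bars the mean and error bars the SD. S100a8 and Il1b are highest on CD151KO 1 and 2, Fkbp5 and Zbtb16 are lowest there, and Arntl and Mfap5 are higher on every CD151KO array than on any CD9KO array.

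Collagens of the interstitial matrix that passed were higher in CD151KO lungs. Of 12 fibrillar and interstitial collagen genes tested, 5 passed, all higher in CD151KO, and the list median was 0.20. Col3a1, the chief collagen of compliant tissue beside type I, read 3579.5, 3333, 3544, 3360.5 and 4044 on CD151KO arrays 1 to 5 and 2541, 1742, 2702, 2259 and 2224 on CD9KO arrays 1 to 5. The groups did not overlap (log2 difference 0.65, SE 0.10, adjusted p = 0.00378), and the wild type mean of 2434 ± 314 (SD, n = 4) was near that of CD9KO. Col5a2 and Col5a1, whose product sets the diameter of collagen fibrils, were higher by 0.33 (SE 0.066, adjusted p = 0.0112) and 0.28 (SE 0.071, adjusted p = 0.0282). Col6a3, of the beaded filaments near cells, was higher by 0.25 (SE 0.060, adjusted p = 0.0217), and Col1a2, named after its value was seen, by 0.27 (SE 0.069, adjusted p = 0.0292). Without both CD151KO 1 and 2, 3 of the list passed and the median was 0.19; without CD9KO 5 alone, 2 passed, and without CD151KO 1, CD151KO 3, CD9KO 2 or CD9KO 4, 3 passed. Col6a3 lost its call without CD9KO 5 (adjusted p = 0.0543), Col5a1 and Col1a2 in 6 of the 10 omissions each. Col6a3 and Col1a2 lost their calls without both CD151KO 1 and 2 (adjusted p = 0.105 to 0.107). Col5a2 and Col5a1 lost their calls when the probe sets of each gene were averaged (adjusted p = 0.0601 to 0.455). The second Col5a2 probe set differed by -0.11 and did not pass, and the mean of both by 0.11.

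Elastic fibre components and the enzymes that process matrix showed a few larger differences. Mfap5, a glycoprotein of the microfibrils around elastin, read 1117, 1155, 1163, 1090.0 and 1156 in CD151KO and 611, 538, 620.2, 636 and 526 in CD9KO. Both groups were tight and far apart (log2 difference 0.94, SE 0.054, adjusted p = 3.82e-06), its second probe set differed by 0.77, and the wild type level of 739 ± 61.1 lay between them. Ltbp3, which stores latent TGF-beta on microfibrils, was higher at 2308 ± 90.0 against 1941 ± 123 (SD, n = 5 each; log2 difference 0.25, SE 0.045, adjusted p = 0.00767). Emilin1, found where elastin meets microfibrils, was higher by 0.31 (SE 0.062, adjusted p = 0.0113), and Fbln5 by 0.24 (SE 0.068, adjusted p = 0.0425), while Mfap2 was lower at -0.18 (SE 0.049, adjusted p = 0.04); Fbln5 and Mfap2 lost their calls in 7 of the 10 omissions each, and Fbln5 was named after its value was seen. That made 5 of 13 genes of the elastic fibre list, 4 higher and 1 lower, with a median of 0.029 that turned negative with the mean of all probe sets or a stricter level filter. Of the list, 3 passed without CD151KO 1, CD151KO 2, CD151KO 4 or CD9KO 5, and 2 without both CD151KO 1 and 2. Loxl1, the oxidase that crosslinks elastin, read 744, 528, 648, 561 and 630.2 against 484, 379, 421, 402 and 431 without overlap (log2 difference 0.53, SE 0.088, adjusted p = 0.00479). The second Loxl1 probe set differed by 0.16 and did not pass. Bmp1, which trims procollagens, was higher by 0.18 (SE 0.044, adjusted p = 0.025), a call lost in 4 of the 10 omissions (CD151KO 2, CD151KO 4, CD9KO 1, CD9KO 5; adjusted p = 0.0503 to 0.0578). Of 14 collagen modifying enzymes, 2 were thus higher and 1 was lower, with a median of -0.020 that turned positive without CD151KO 1, without CD9KO 1, and without both CD151KO 1 and 2. Of these enzymes, 1 passed without CD151KO 4, CD9KO 1 or CD9KO 5, or without both CD151KO 1 and 2. Emilin1, Fbln5, Mfap2 and Bmp1 lost their calls without both CD151KO 1 and 2 (adjusted p = 0.0563 to 0.203). Fbln5, Mfap2 and Bmp1 lost their calls when the probe sets of each gene were averaged (adjusted p = 0.0781 to 0.379).

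Of 14 adhesive glycoprotein genes tested, 3 were lower, 1 was higher and 10 did not pass. The median was -0.031, with 8 differences below 0 and 6 above, and it turned to 0.028 without both CD151KO 1 and 2. Fibronectin (Fn1) was lower at 1778 ± 139 against 2154 ± 175 (SD, n = 5 each; log2 difference -0.27, SE 0.064, adjusted p = 0.0213) and thrombospondin 1 (Thbs1), an activator of latent TGF-beta, at 686 ± 33.5 against 943 ± 171 (log2 difference -0.43, SE 0.11, adjusted p = 0.0254). Tnxb, of the tenascin family, was lower at -0.23 (SE 0.061, adjusted p = 0.0329). Spon2, a secreted adhesive protein, was the member that was higher, 181, 101, 121, 113 and 139 against 88.1, 75.9, 75.9, 75.9 and 83.1 (log2 difference 0.60, SE 0.12, adjusted p = 0.00961), with CD151KO 1 the highest. The second Spon2 probe set differed by 0.045 and did not pass. Fn1 lost its call without CD9KO 5 (adjusted p = 0.0567), Thbs1 without CD151KO 2, CD9KO 4 or CD9KO 5 (0.0567 to 0.0631), and Tnxb in 8 of the 10 omissions. Without CD9KO 5, 1 of the list passed, and without both CD151KO 1 and 2, 2 passed. Thbs1 and Tnxb lost their calls without both CD151KO 1 and 2 (adjusted p = 0.0632 to 0.0873).

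Among 17 proteases and inhibitors of the matrix, 1 was higher and 2 were lower (17.6% passed, against 11.5% of all genes), although the list median was 0.15. Timp3, the metalloproteinase inhibitor that binds to matrix, read 6366, 7476, 7484, 8196 and 8206 against 10463, 9756, 9268, 11068 and 10016 (log2 difference -0.43, SE 0.068, adjusted p = 0.00414). No CD151KO array reached the lowest CD9KO array. Mmp14, the membrane-anchored collagenase, was higher, 392 ± 34.4 against 319 ± 15.7 (SD, n = 5 each; log2 difference 0.28, SE 0.061, adjusted p = 0.0153). Plat, the tissue plasminogen activator, read 711 to 1574 in CD151KO and 1438 to 1982 in CD9KO (log2 difference -0.62, SE 0.18, adjusted p = 0.0478); its call was lost in 8 of the 10 omissions. Without CD151KO 5, 5 of the list passed. Plat lost its call without both CD151KO 1 and 2 (adjusted p = 0.156). Mmp14 and Plat lost their calls when the probe sets of each gene were averaged (adjusted p = 0.0721 to 0.111).

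CD151 ties its integrins to the basement membrane. Of 20 basement membrane genes tested, 2 were higher and 1 lower (15% passed, against 11.5% of all genes), with a median of 0.065. Col4a4, one of the type IV chains of alveolar basement membrane, read 2204, 2164, 1940.4, 2048 and 1929.5 in CD151KO and 1701, 1666, 1687, 1519 and 1599.5 in CD9KO without overlap (log2 difference 0.33, SE 0.046, adjusted p = 0.00312). Sparc, which binds collagen IV, was higher by 0.18 (SE 0.042, adjusted p = 0.0226), and nidogen 1 (Nid1) was lower at -0.18 (SE 0.049, adjusted p = 0.0363). Of the 10 laminin-binding integrin and hemidesmosome genes tested, 3 passed (30%), all higher in CD151KO, with a median of 0.019. They were Lamb3 (788 ± 46.7 against 619 ± 56.3, SD, n = 5 each; log2 difference 0.34, SE 0.063, adjusted p = 0.00859) and Lama3 at 0.19 (SE 0.045, adjusted p = 0.0234), both chains of laminin-332, and the integrin subunit gene Itga7 at 0.22 (SE 0.065, adjusted p = 0.0485). Sparc lost its call without CD9KO 5 (adjusted p = 0.0582), Lama3 without CD151KO 1, CD151KO 2 or CD9KO 5 (0.051 to 0.0519), and Nid1 and Itga7 in 7 of the 10 omissions each. Without CD9KO 5, or without both CD151KO 1 and 2, 1 basement membrane gene passed. Of the laminin list, 1 passed without CD151KO 1, without CD9KO 5, or without both CD151KO 1 and 2. Sparc, Nid1, Lama3 and Itga7 lost their calls without both CD151KO 1 and 2 (adjusted p = 0.0646 to 0.112). Sparc, Nid1 and Lama3 lost their calls when the probe sets of each gene were averaged (adjusted p = 0.0608 to 0.261).

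Other tetraspanins were compared next, since CD151 and CD9 share membrane domains with them. Of 25 tested, 4 were higher and 1 was lower in CD151KO (20% passed, against 11.5% of all genes), with a median of 0.051. Tspan4, known from migrasomes, the vesicles left behind by migrating cells, read 932, 1349.8, 1183, 1219.5 and 1112 on CD151KO arrays 1 to 5 and 2038, 1849, 1768, 1903 and 1906 on CD9KO arrays 1 to 5 (log2 difference -0.71, SE 0.080, adjusted p = 0.000969). No CD151KO array reached the CD9KO range, and the wild type mean of 1995 ± 91.7 (SD, n = 4) lay with CD9KO. Tspan1, an epithelial tetraspanin, read 1223, 1189.9, 1307, 1386 and 1398 against 1033, 1065, 1006, 997 and 893 (log2 difference 0.38, SE 0.057, adjusted p = 0.00373). Cd82, a suppressor of cell motility, was higher by 0.21 (SE 0.040, adjusted p = 0.00907), Tspan15, which escorts the protease ADAM10, by 0.30 (SE 0.069, adjusted p = 0.0209), and Cd81, the closest relative of Cd9 in function, by 0.092 (SE 0.027, adjusted p = 0.0467), a call lost in 9 of the 10 omissions. The wild type mean of Tspan1 (1207 ± 26.2) lay between both knockouts, and that of Tspan15 (735 ± 79.5) was level with CD151KO. Without both CD151KO 1 and 2, 3 of the list passed (2 higher, 1 lower). Tspan15 and Cd81 lost their calls without both CD151KO 1 and 2 (adjusted p = 0.0577 to 0.17). Cd82 lost its call when its probe sets were averaged (adjusted p = 0.122).

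Of 14 genes for partners of tetraspanins, 3 were higher and none lower (21.4% passed, against 11.5% of all genes). The list median was 0.041, and it turned to -0.0036 without both CD151KO 1 and 2. Adam17, the sheddase whose activity CD9 restrains, read 675, 688, 685, 666 and 696 against 597, 595, 600.0, 603 and 576, a small difference with little spread (log2 difference 0.19, SE 0.029, adjusted p = 0.00373). Epcam, the adhesion molecule of epithelium, was 1905 ± 112 against 1654 ± 65.4 (SD, n = 5 each; log2 difference 0.20, SE 0.044, adjusted p = 0.0155). Ezrin (Ezr), which links membrane proteins to actin, was higher by 0.16 (SE 0.041, adjusted p = 0.0293), a call lost in 6 of the 10 omissions. Epcam and Ezr lost their calls when the probe sets of each gene were averaged (adjusted p = 0.088 to 0.109).

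Tspan4 lies 1 tested gene away from Cd151 on chromosome 7. Genes close to a targeted locus can carry DNA of the strain in which the gene was targeted, so the 50 tested genes on each side were counted. Around Cd151, where the chromosome end left 92 such genes, 14 passed (15.2%; 6 higher and 8 lower), against 12.2% of the 982 tested on chromosome 7 and 11.5% of all. The nearest of them were Tspan4, Cracr2b, of store-operated calcium entry (log2 difference -0.24, SE 0.033, adjusted p = 0.0029), Pnpla2, the triglyceride lipase of lipid droplets (log2 difference -0.28, SE 0.048, adjusted p = 0.00599), and Taldo1, of the pentose phosphate pathway (log2 difference 0.18, SE 0.040, adjusted p = 0.0147), at 1, 2, 3 and 9 genes from Cd151. Cd81 lies 20 genes away. Around Cd9, 8 of 100 passed (8%), against 10.7% of the 693 on chromosome 6. Mfap5 lies 48 and Cd163 36 tested genes from Cd9. Counted over 25 genes on each side, 8 of 50 passed around Cd151 (16%) and 2 of 50 around Cd9 (4%); over 100 genes, 27 of 142 (19%) and 22 of 200 (11%) did. The part of flanking DNA in these values was not tested. Taldo1 lost its call without both CD151KO 1 and 2 (adjusted p = 0.0747).

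Epithelial genes were counted by compartment. Of 18 alveolar type 2 and surfactant genes, 5 were higher and 1 was lower in CD151KO, with a median of 0.083. Cxcl15, the lung's own neutrophil chemokine made by epithelium, read 16037, 16046, 16314, 15704 and 16348 in CD151KO and 12499, 12896, 13076, 13192 and 12455 in CD9KO (log2 difference 0.33, SE 0.024, adjusted p = 3.81e-05). The spread was small and the groups lay well apart. Abca3, which loads lipid into lamellar bodies, read 3402, 3116, 2941, 3106 and 3195 against 2281, 2435, 2436, 2394 and 2741 (log2 difference 0.36, SE 0.050, adjusted p = 0.00301). Lpcat1, which makes the saturated phosphatidylcholine of surfactant, was higher by 0.32 (SE 0.067, adjusted p = 0.0137), S100g, a calcium carrier, by 0.30 (SE 0.061, adjusted p = 0.0119), and Muc1 by 0.14 (SE 0.041, adjusted p = 0.0444), a call lost in 8 of the 10 omissions. Nkx2-1, the transcription factor that specifies lung epithelium, was the member that was lower, 95.3 ± 7.89 against 123 ± 12.1 (SD, n = 5 each; log2 difference -0.32, SE 0.068, adjusted p = 0.0146); it and Muc1 were named after their values were seen. Without CD151KO 1 and 2 together, 2 of the list passed, with a list median of 0.075. Surfactant protein genes did not pass: Sftpc read 28719 to 29212 against 28308 to 28790 and Sftpb 8427 to 9133 against 8508 to 9377. Sftpc lay close to the highest signal on the 10 knockout arrays, 29667, so a difference in it may not show. Lpcat1, S100g, Muc1 and Nkx2-1 lost their calls without both CD151KO 1 and 2 (adjusted p = 0.0563 to 0.0917). Muc1 has 1 probe set, and its adjusted p was 0.0503 in the fit that took the mean of all probe sets of each gene.

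Alveolar type 1 genes were nearly even, with 1 higher and 1 lower of 16 tested (12.5% passed, against 11.5% of all genes) and a median of 0.0039. The sodium channel subunit gene Scnn1g was higher by 0.20 (SE 0.046, adjusted p = 0.022), lost without CD9KO 5 (adjusted p = 0.0529), and Clic5 was lower at -0.13 (SE 0.035, adjusted p = 0.032), lost in 6 of the 10 omissions. Among airway genes, Bpifa1, of airway surface fluid, read 8931, 13547, 11880.0, 10339 and 10139 against 11245, 5510.2, 2831, 4556 and 4741 (log2 difference 1.06, SE 0.28, adjusted p = 0.0322), with CD9KO 1 inside the CD151KO range, and Scgb3a1, a secretoglobin, read 8423, 9893, 8309, 10400.0 and 7889.6 against 7635, 7145, 5884, 4762 and 3223 (log2 difference 0.70, SE 0.20, adjusted p = 0.0405). The members that were lower included the oxidative enzymes Fmo2 (7866 ± 794 against 9642 ± 411, SD, n = 5 each; log2 difference -0.30, SE 0.061, adjusted p = 0.0118) and Cyp4b1 (log2 difference -0.14, SE 0.025, adjusted p = 0.0079). Bpifa1 and Scgb3a1 each lost their call in 6 of the 10 omissions. Counting these, 2 of 18 club and secretory genes were higher and 3 lower (27.8% passed), and 2 to 6 passed over the 10 omissions. Without both CD151KO 1 and 2, 2 of that list passed, both lower. Among 18 ciliated cell genes 2 passed (11.1%, against 11.5% of all genes), both higher, with 17 of 18 differences above 0 and a median of 0.15; the tubulin gene Tubb4b was one (log2 difference 0.14, SE 0.036, adjusted p = 0.0315, lost in 5 of the 10 omissions), and 0 to 6 of the list passed over the omissions. Scnn1g, Bpifa1, Scgb3a1 and Tubb4b lost their calls without both CD151KO 1 and 2 (adjusted p = 0.0803 to 0.135). Clic5 and Tubb4b lost their calls when the probe sets of each gene were averaged (adjusted p = 0.21 to 0.304). Scgb3a1 has 1 probe set, and in that fit its log2 difference stayed at 0.70 with an adjusted p of 0.0514.

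Cell junction genes of epithelium were higher where they passed, 6 of 22 tested, with a median of 0.058. Tjp3, a scaffold of tight junctions, read 189.6, 208, 179.5, 175 and 183 against 136, 158, 144, 151 and 134 (log2 difference 0.34, SE 0.056, adjusted p = 0.00517), and cingulin (Cgn), which ties tight junctions to actin, read 645, 601, 596, 548 and 558 against 474, 518, 503, 488 and 481 (log2 difference 0.25, SE 0.047, adjusted p = 0.00902). In both genes the groups were apart. Claudin 7 (Cldn7), named after its value was seen, was higher by 0.22 (SE 0.057, adjusted p = 0.0314), lost in 5 of the 10 omissions, and Epcam was given above. Of the list, 3 passed without CD151KO 4 or CD9KO 5. Itgb6, the epithelial integrin subunit that forms the TGF-beta activating integrin alpha-v beta-6, had one of the largest differences of all. It read 261, 309, 207, 215 and 208 on CD151KO arrays 1 to 5 and 105, 118, 114, 113 and 95.3 on CD9KO arrays 1 to 5 (log2 difference 1.02, SE 0.10, adjusted p = 0.000513). The lowest CD151KO array was well above the highest CD9KO array, and the wild type arrays read 193, 223, 133 and 126, 1 of them within the CD151KO range and the others between both knockouts; its second probe set was higher by 0.33. CD151KO 1 and 2 were again the highest, and without both the difference was 0.86 (adjusted p = 0.000162).

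The TGF-beta and BMP list held 4 genes that passed of 24 (16.7%, against 11.5% of all genes), 2 in each direction, and a median of -0.0091. Besides Itgb6, the ligand gene Tgfb2 was higher by 0.31 (SE 0.071, adjusted p = 0.02), lost without CD9KO 5 (adjusted p = 0.0543). The co-receptor gene Tgfbr3 was lower, 2859 ± 90.7 against 3474 ± 221 (SD, n = 5 each; log2 difference -0.28, SE 0.043, adjusted p = 0.00378). Follistatin (Fst), which traps activins, read 51.4, 54.2, 71.3, 81.9 and 85.6 against 155, 97.1, 155, 139 and 144 (log2 difference -0.86, SE 0.14, adjusted p = 0.00437), so that the highest CD151KO array was below the lowest CD9KO array. Tgfb2 lost its call without both CD151KO 1 and 2 (adjusted p = 0.108).

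Genes of lipid synthesis that passed were higher in CD151KO. Of 24 genes for the synthesis of fatty acids and cholesterol, 12 were higher in CD151KO and none lower, with a median of 0.23 and 22 of 24 differences above 0. Sqle, squalene epoxidase, read 737, 632, 645, 655 and 669.8 in CD151KO and 491, 534, 518, 489 and 458 in CD9KO (log2 difference 0.41, SE 0.051, adjusted p = 0.0018). Every CD151KO array was above every CD9KO array. Elovl1, which lengthens saturated fatty acids, read 5848, 4755, 4880.0, 4532 and 4808 against 3671, 3824, 3809, 3327 and 3662 (log2 difference 0.43, SE 0.063, adjusted p = 0.00335), with CD151KO 1 highest. Further along cholesterol synthesis, Idi1 was higher by 0.32 (SE 0.051, adjusted p = 0.00397), Fdps by 0.36 (SE 0.067, adjusted p = 0.00902) and Cyp51 by 0.35 (SE 0.052, adjusted p = 0.00335). On the fatty acid side, Fasn, fatty acid synthase, was 2288 ± 165 against 1854 ± 118 (SD, n = 5 each; log2 difference 0.30, SE 0.056, adjusted p = 0.00859) and Acaca, the carboxylase before it, 703 ± 91.3 against 538 ± 45.1 (log2 difference 0.37, SE 0.083, adjusted p = 0.0173). Srebf1, the transcription factor of the pathway, was higher by 0.28 (SE 0.076, adjusted p = 0.0382), lost in 5 of the 10 omissions. Fdps, Fasn, Acaca and Srebf1 were named after their values were seen. Acaca and Srebf1 lost their calls without both CD151KO 1 and 2 (adjusted p = 0.0571 to 0.135). Acaca lost its call when its probe sets were averaged (adjusted p = 0.107).

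The wild type level of Sqle, 599 ± 111 (SD, n = 4), lay between both knockouts, and the list's mean level was 9.90 to 10.03 in CD151KO, 9.68 to 9.84 in CD9KO and 9.69 to 9.92 in wild type. Without CD151KO 1 and 2 together, 6 of the list passed, all higher, with a median of 0.17, and without CD151KO 1 or CD9KO 5 alone, 8 passed. The alveolar type 2 list, whose cells make surfactant lipid, stood at 12.13 to 12.23 in CD151KO and 12.05 to 12.13 in CD9KO; its part in the lipid genes was not tested.

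**Figure D4:**
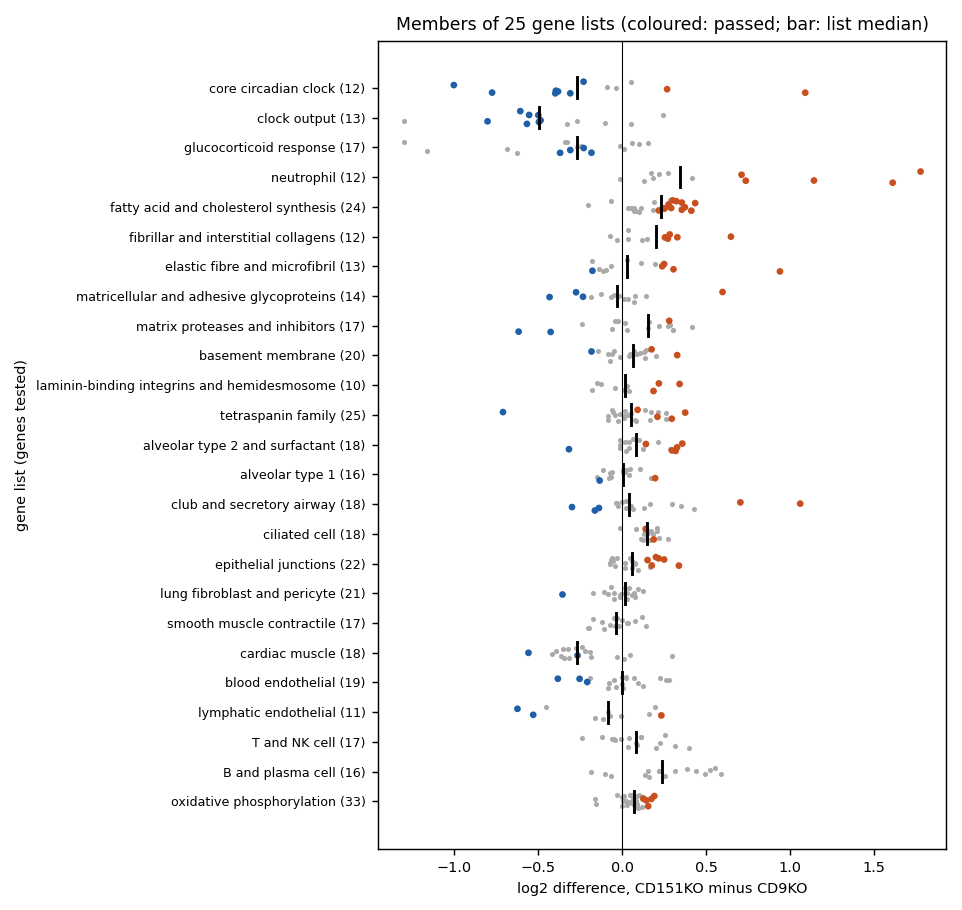
Log2 difference (CD151KO minus CD9KO) of every tested member of 25 gene lists, with the number tested in brackets; orange members passed and were higher in CD151KO, blue members passed and were lower, grey members did not pass, and black bars mark list medians. Clock output has 7 blue members and no orange one, and fatty acid and cholesterol synthesis 12 orange and no blue.

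Of 19 blood endothelial genes tested, 3 passed (15.8%, against 11.5% of all genes), all lower in CD151KO. The list median was -0.0008, with 10 differences below 0 and 9 above. Flt1, a VEGF receptor, read 1242, 1549, 1506, 1404 and 1416 in CD151KO and 1929, 1828, 1780.1, 1867 and 1873 in CD9KO (log2 difference -0.38, SE 0.053, adjusted p = 0.00291). The groups did not overlap, and the wild type mean of 1359 ± 170.1 (SD, n = 4) was like that of CD151KO. Car4, the carbonic anhydrase of alveolar capillaries, was 2530.4 ± 148 against 2922 ± 111 (SD, n = 5 each; log2 difference -0.21, SE 0.042, adjusted p = 0.0119), and endoglin (Eng), a TGF-beta co-receptor, was lower at -0.25 (SE 0.064, adjusted p = 0.0282), lost without CD151KO 4, CD9KO 1 or CD9KO 5 (adjusted p = 0.055 to 0.0708). The pan-endothelial markers Pecam1 (1849 to 2059 against 1989 to 2110) and Cdh5 (2549 to 2812 against 2578 to 2696) did not pass. With both CD151KO 1 and 2 left out, 3 of the list were lower and 1 higher. Eng lost its call when its probe sets were averaged (adjusted p = 0.0542).

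Of 11 lymphatic genes, 2 were lower and 1 higher (27.3% passed, against 11.5% of all genes). The list median was -0.081, with 8 differences below 0 and 3 above. Ccbe1, needed to process VEGF-C during lymphatic growth, read 212, 215, 235, 251 and 245 against 398, 328, 318, 406 and 384 (log2 difference -0.62, SE 0.075, adjusted p = 0.00144), and its wild type mean of 365 ± 44.4 lay with CD9KO. Vegfd, a ligand of the lymphatic VEGF receptor, read 843, 1088, 806, 823 and 799 against 1418, 1062, 1294, 1242 and 1291 (log2 difference -0.53, SE 0.091, adjusted p = 0.00592). Only CD151KO 2 reached into the CD9KO range. Gja1, a gap junction protein, was higher by 0.23 (SE 0.053, adjusted p = 0.0185). Gja1 lost its call without both CD151KO 1 and 2 (adjusted p = 0.0642).

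Mouse pulmonary veins carry a sleeve of heart muscle. Of 18 heart muscle genes, 15 had differences below 0, and Myh6 (963 to 1684 against 1484 to 2264; log2 difference -0.56, SE 0.16, adjusted p = 0.047) and Myl3 (log2 difference -0.27, SE 0.078, adjusted p = 0.0476) passed as lower (11.1% of the list, against 11.5% of all genes). Their calls were lost in 8 and 9 of the 10 omissions. The mean level of the list was 8.39 to 9.0 in CD151KO and 8.60 to 9.14 in CD9KO, an overlap, with 8.46 to 8.67 in wild type. None of 17 smooth muscle genes passed by limma, and 3 had an unadjusted p under 0.05, as had 29.5% of all genes tested. Of 21 fibroblast and pericyte genes 1 passed (4.76%), the transcription factor gene Tcf21, lower at -0.36 (SE 0.11, adjusted p = 0.048) and lost in 7 of the 10 omissions. Myh6 and Myl3 lost their calls without both CD151KO 1 and 2 (adjusted p = 0.208 to 0.222). Myh6 and Tcf21 lost their calls when the probe sets of each gene were averaged (adjusted p = 0.0517 to 0.0568).

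Other leukocyte genes were counted next. Of 21 macrophage and complement genes, 2 passed (9.52%), both lower in CD151KO. Mertk, a receptor for dying cells, read 561, 629, 625, 682 and 719.6 against 798, 854, 809, 857 and 878 (log2 difference -0.38, SE 0.060, adjusted p = 0.00386), and the groups did not overlap. Cd163, the scavenger receptor for haemoglobin, read 79.3 to 185 in CD151KO and 184 to 266 in CD9KO (log2 difference -0.74, SE 0.19, adjusted p = 0.0318), lost in 7 of the 10 omissions. None of 17 T and NK cell genes, 16 B and plasma cell genes or 10 MHC class II genes passed by limma at the adjusted threshold; 0, 5 and 1 of them had an unadjusted p under 0.05, as had 29.5% of all genes tested. Of 19 chemokine ligand genes, 2 were higher (10.5% passed, against 11.5% of all genes): Cxcl16 (log2 difference 0.17, SE 0.037, adjusted p = 0.0144) and Cxcl12 (log2 difference 0.46, SE 0.11, adjusted p = 0.0258), the latter lost without CD151KO 1, CD151KO 2 or CD9KO 5 (adjusted p = 0.0556 to 0.0584). Cd163, Cxcl16 and Cxcl12 lost their calls without both CD151KO 1 and 2 (adjusted p = 0.0601 to 0.127).

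Lists of stress, defence and housekeeping genes followed. Of 18 cytosolic heat shock genes 1 passed (5.56%), Dnajb1, an HSP40 chaperone that read 1728, 3195, 2242, 1926 and 1954 against 1848, 1652, 1245, 1139.7 and 1237 (log2 difference 0.62, SE 0.17, adjusted p = 0.0375), lost in 5 of the 10 omissions. Nr4a3, an orphan nuclear receptor, was lower (log2 difference -0.67, SE 0.15, adjusted p = 0.0181) as 1 of 2 immediate early genes that passed of 22 (9.09%), lost without CD9KO 5 (adjusted p = 0.0502). The other Nr4a3 probe sets differed by 0.013 and -0.017 and did not pass. Of 24 unfolded protein response genes 1 passed (4.17%), while 22 of 24 differences were below 0, and 5 passed without CD151KO 5. Among glutathione and Nrf2 target genes, 2 of 24 were higher and 2 lower (16.7% passed, against 11.5% of all genes). The glutathione transferase gene Gstt3 read 705, 687, 670.0, 625 and 660.0 against 476, 484, 468, 451 and 428 (log2 difference 0.52, SE 0.044, adjusted p = 0.000158), its neighbour in function Gstt1 was higher by 0.20 (SE 0.031, adjusted p = 0.00386), and Gsta3 was lower at -0.33 (SE 0.080, adjusted p = 0.0249), lost without CD9KO 4 or CD9KO 5 (adjusted p = 0.0502 to 0.0645). Oxidative phosphorylation genes were higher where they passed, 5 of 33 (15.2%), by small amounts such as 0.19 (SE 0.029, adjusted p = 0.00362) for Ndufb3 and 0.13 (SE 0.025, adjusted p = 0.0111) for Ndufa2; without CD9KO 1, 10 passed, and without both CD151KO 1 and 2, 1. Of 23 ribosomal protein genes 4 passed (17.4%), all higher, among them Rpl11 (log2 difference 0.13, SE 0.023, adjusted p = 0.00825) and Rps18 (log2 difference 0.12, SE 0.027, adjusted p = 0.017); without both CD151KO 1 and 2, 1 passed. Dnajb1, Nr4a3, Gsta3, Ndufa2 and Rps18 lost their calls without both CD151KO 1 and 2 (adjusted p = 0.0516 to 0.0883). Dnajb1 and Rps18 lost their calls when the probe sets of each gene were averaged (adjusted p = 0.0634 to 0.491).

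Of 26 Wnt pathway genes, which act in lung patterning, 3 were higher and 2 lower (19.2% passed, against 11.5% of all genes). The receptor gene Fzd2 read 331, 334, 251, 194 and 206 against 175, 175, 181, 150.1 and 157 (log2 difference 0.57, SE 0.14, adjusted p = 0.023), and the secreted modulator gene Sfrp2 read 170.4, 203, 229, 162 and 152 against 114, 71.5, 155, 99.4 and 119.7 (log2 difference 0.66, SE 0.16, adjusted p = 0.0234). Their calls were lost without CD9KO 4 or CD9KO 5 (adjusted p = 0.0515 to 0.0578) and without CD151KO 2, CD151KO 3 or CD9KO 4 (0.0513 to 0.0529), and none of the 5 passed without both CD151KO 1 and 2. Of 12 retinoid genes 2 were higher and 1 lower (25% passed); the retinoic acid receptor gene Rarb was 137 ± 8.44 against 105 ± 10.4 (SD, n = 5 each; log2 difference 0.34, SE 0.063, adjusted p = 0.00902). Fzd2, Sfrp2 and Rarb lost their calls without both CD151KO 1 and 2 (adjusted p = 0.0523 to 0.0903).

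Over all 49 lists, 775 genes were tested. The share that passed was above 11.5% in 27 lists, and none passed in 10. Small list counts moved with single arrays: over the 10 omissions, 0 to 3 alveolar type 1, 0 to 2 cardiac, 1 to 2 macrophage, 1 to 4 Wnt, 1 to 4 retinoid, 1 to 3 chemokine, 2 to 5 glutathione, 0 to 3 immediate early and 0 to 2 heat shock genes passed. These lists were drawn with earlier results of these data known, so the counts describe them and do not set them apart from other genes.

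Several of the largest differences fell outside these groups. Among genes higher in CD151KO, Bex2, a small adaptor protein best known from neurons, read 1201, 1136, 1054, 950.4 and 737 on CD151KO arrays 1 to 5 and 557, 471, 561, 544 and 403 on CD9KO arrays 1 to 5 (log2 difference 0.97, SE 0.13, adjusted p = 0.00243). St6galnac3, a sialyltransferase, read 365, 270.4, 396, 331 and 312 against 208, 169.7, 185, 199 and 163 (log2 difference 0.80, SE 0.095, adjusted p = 0.00128). Mthfd1, an enzyme of folate metabolism, read 2576, 2109, 1998, 1615 and 1552 against 1395, 1176, 1098, 1069 and 1058 (log2 difference 0.74, SE 0.13, adjusted p = 0.00592). In these genes every CD151KO array was above every CD9KO array, and the wild type means of 916 ± 199, 225 ± 32.9 and 1896 ± 437 lay between. The wild type arrays of Bex2 (765 to 1208) and Mthfd1 (1492.5 to 2342) overlapped CD151KO and lay above every CD9KO array. Those of St6galnac3 (184 to 255) overlapped CD9KO and lay below every CD151KO array. Spink5, a serine protease inhibitor of squamous epithelium, was low in both groups at 70.1 to 180.0 against 8.82 to 61.9 (log2 difference 1.31, SE 0.29, adjusted p = 0.0165). Cttnbp2, a regulator of cortactin, was higher by 0.76 (SE 0.18, adjusted p = 0.0226), lost without CD151KO 2 or CD9KO 5 (adjusted p = 0.0513 to 0.0551). The second Cttnbp2 probe set differed by 0.13 and did not pass. Iglv1, an immunoglobulin lambda segment whose probe set can also bind related segments, read 897 to 2292 against 382 to 761 (log2 difference 1.12, SE 0.24, adjusted p = 0.0137). It was not in the B and plasma cell list, of which no gene passed.

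Among genes lower in CD151KO, Pcdh20, a protocadherin, read 34.1, 34.9, 55.8, 59.8 and 59.5 against 129, 77.7, 93.2, 205 and 184 (log2 difference -1.19, SE 0.23, adjusted p = 0.00945). Its CD9KO arrays varied, and its wild type mean of 52.2 ± 9.46 (SD, n = 4) lay with CD151KO. Cntn1, a neural adhesion protein, read 39.8, 84.1, 40.8, 57.0 and 41.1 against 148, 89.2, 131, 91.0 and 113 (log2 difference -0.95, SE 0.17, adjusted p = 0.00813). The other Cntn1 probe sets differed by -0.29 and -0.032 and did not pass. Resp18, of endocrine secretory granules, read 44.0, 44.7, 47.9, 46.7 and 55.9 against 77.3, 85.0, 91.5, 102 and 94.8 (log2 difference -0.73, SE 0.070, adjusted p = 0.000438). Tinagl1, a matricellular protein of basement membranes, read 438, 563, 812, 861 and 820.4 against 1158, 1092, 1112, 1228 and 1085 (log2 difference -0.73, SE 0.16, adjusted p = 0.0153), with a wild type mean of 663 ± 155. Sema7a, a semaphorin, was 945 ± 295 against 1551 ± 177 (SD, n = 5 each; log2 difference -0.76, SE 0.19, adjusted p = 0.0271), lost without CD151KO 2, CD9KO 4 or CD9KO 5 (adjusted p = 0.0603 to 0.0629). The second Sema7a probe set differed by -0.27 and did not pass.

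Smaller members of this group were A4galt, which makes the glycolipid Gb3 (log2 difference -0.73, SE 0.16, adjusted p = 0.0167), Arrdc2, an arrestin-like protein (log2 difference -0.71, SE 0.13, adjusted p = 0.00719), Klhl2, an adaptor of ubiquitin ligases (log2 difference -0.65, SE 0.15, adjusted p = 0.02), and 4930486L24Rik (log2 difference -0.65, SE 0.14, adjusted p = 0.0127). Pmaip1, which encodes the apoptosis regulator NOXA, was lower too (log2 difference -0.67, SE 0.16, adjusted p = 0.0229), lost without CD9KO 3 or CD9KO 5 (adjusted p = 0.0512 to 0.052). In Sema7a, A4galt, Arrdc2 and Klhl2 the lowest arrays were CD151KO 1 and 2, as they were for Fkbp5. Without both arrays the differences of A4galt (-0.48, adjusted p = 0.0553), Klhl2 (-0.44, 0.0609), Pmaip1 (-0.55, 0.0889) and Pcdh20 (-0.97, 0.0546) no longer passed, nor did those of Spink5 (1.14, 0.0735), Iglv1 (1.07, 0.0642) and Cttnbp2 (0.49, 0.0796), while those of Tinagl1 (-0.44, 0.0016), Resp18 (-0.68, 0.00276) and Tspan4 (-0.68, 0.000153) did.

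**Figure D5:**
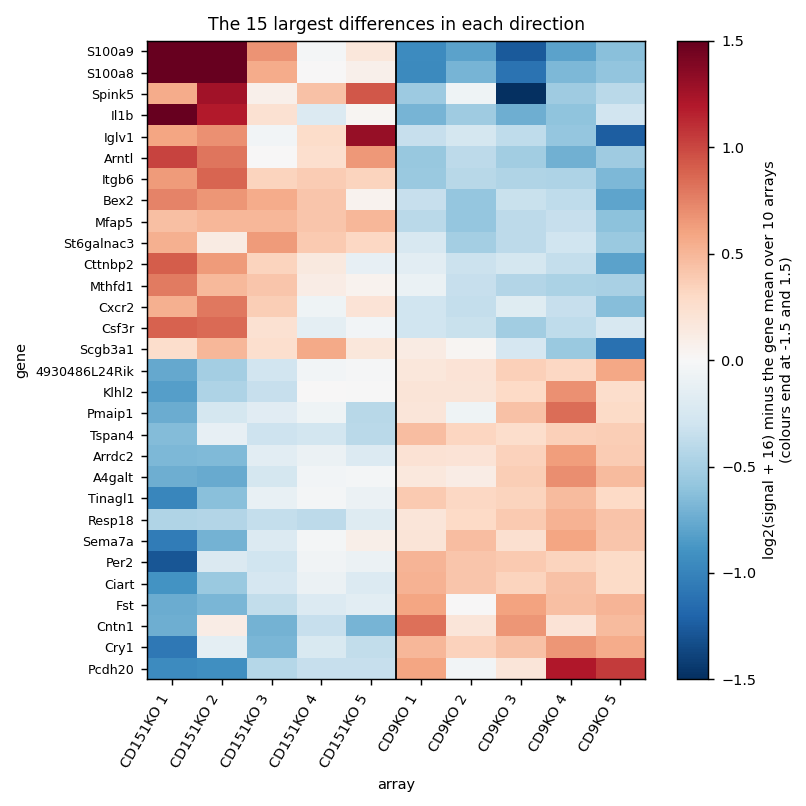
The 15 genes with the largest log2 difference in each direction among those that passed without overlap of the groups, Cd151 and Cd9 left out, as log2(signal + 16) minus the gene's mean over the 10 arrays. Genes from S100a9 to Scgb3a1 are higher on the 5 CD151KO arrays (left) and genes from 4930486L24Rik to Pcdh20 are lower, with the strongest colours of S100a9, S100a8 and Per2 on CD151KO 1.

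The samples of one line also varied among themselves. The median SD of a gene over 5 arrays was 0.079 in CD151KO and 0.077 in CD9KO on the log2 scale, and 66 and 54 genes, respectively, had an SD of at least 0.5. Cyp1a1, the classic target of the aryl hydrocarbon receptor, had the widest spread in both lines. It read 81.1, 63.7, 1009, 74.4 and 85.4 in CD151KO and 132, 91.8, 132, 1571 and 162 in CD9KO, so that 1 array of each line was high and the rest low. Apol11b read 35.6, 71.1, 208, 62.4 and 56.7 against 62.8, 685, 50.2, 74.9 and 69.0, and Gbp6, an interferon-induced GTPase, 500.3, 400.3, 657, 549 and 497 against 409, 2043, 501, 332 and 410.3, both high on CD9KO 2. None of the 3 passed (adjusted p = 0.643, 0.647 and 0.851), and the sign of each turned when its high CD9KO array was left out.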

How the data were processed

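Total RNA from mouse lung was measured in 14 samples on Affymetrix arrays. The values are linear signal intensities deposited by the authors in the series table; the submitters' processing notes name Affymetrix Expression Console and MAS5 without a version or role, and the sources used here do not say how probes were summarised. The signals ran from 4.81 to 29667 and were used as log2(signal + 16). Of 45101 probe sets, 64 were controls, 34945 had 1 gene symbol, 932 several and 9160 none. For each of 18193 genes 1 probe set was kept, that of highest mean level on the 10 knockout arrays, and 12987 genes at or above the 40th percentile of level (signal 53.2) were tested with limma 3.58.1 in R 4.3.3 (lmFit, eBayes with trend, 8 residual degrees of freedom), CD151KO minus CD9KO, two-sided, with Benjamini-Hochberg adjustment over all of them and a pass at an adjusted p under 0.05. The script was tested on simulated data. The number of arrays limits the precision.

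Named genes were both targeted genes, the 15 largest differences in each direction among genes that passed without overlap, up to 4 members of each list by smallest p, the 5 most variable genes of each line, and neighbours of Cd151 or Cd9 that passed; others are marked as chosen after their values were seen. Members and lists were chosen with earlier results of these data known. Alternatives were other pseudocounts, quantile normalization, median centring, other level filters, the mean of all probe sets or every probe set, all 14 arrays, no trend, array weights, a replicate block and leaving out arrays; leaving out CD151KO 1 and 2 together was chosen after seeing the data.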

Additional observations from a re-analysis of the deposited data

Results flagged for a closer look

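Of 288 groups of 5 arrays examined, 15 had an array whose gap to the nearest other exceeded 0.71 of the group's range. Chance passes this limit in about 1 in 20 groups, so the count is near what chance gives. Genes named for a wide spread within a line, such as Cyp1a1, were likely to be flagged. Of the 15, 5 lay on CD9KO 2 and 3 on CD9KO 4. On CD9KO 2, Apol11b read 685 against 50.2 to 74.9 on the other CD9KO arrays, Gbp6 2043 against 332 to 501, Tef 3104 against 2957 to 2993, Fst 97.1 against 139 to 155, and Cyp4b1 10770.0 against 10064 to 10199. On CD9KO 4, Cyp1a1 read 1571 against 91.8 to 162, Fkbp5 2107 against 1294 to 1418, and Klhl2 1359 against 963 to 1033. Hlf read 409 on CD9KO 1 against 324 to 332.

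In CD151KO, Cyp1a1 read 1009 on array 3 against 63.7 to 85.4 on the others, and Cd151 itself 1027 there against 1061 to 1072. Per2 read 307 on array 1 against 624 to 737. On array 2, Vegfd read 1088 against 799 to 843 and Ndufa2 2402 against 2312 to 2337. Cd81 read 5141 on array 5 against 5236 to 5273.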

How the results depend on the processing

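Of 1497 genes, 66 (35 higher, 31 lower) passed with at least 1.5-fold. Leaving out single arrays gave 727 to 1556 genes (457 to 872 higher, 270 to 684 lower), and leaving out CD151KO 1 and 2 together, an alternative chosen after seeing the data, gave 557 (333 higher, 224 lower), of which 514 had passed with all arrays. Other pseudocounts, scalings, filters, probe rules and fits gave 1131 to 1932 (the highest counting every probe set). With the mean of all probe sets, 12 genes that had passed changed direction. Of the neighbours, 8 of 50 passed within 25 genes of Cd151 (16%) and 27 of 142 within 100 (19%), and 2 of 50 (4%) and 22 of 200 (11%) for Cd9, against 11.5% of all genes. Of 131 named genes that passed, 60 did so under every alternative that tested them; 42 lost the call without CD9KO 5 and 55 without CD151KO 1 and 2. Over single omissions the log2 difference of Cyp1a1 ran from -1.34 to 0.055 (without CD9KO 4), that of Apol11b from -0.68 to 0.17 and that of Gbp6 from -0.32 to 0.32 (both without CD9KO 2). The cause was not tested, apart from the fewer arrays.

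Same-numbered CD151KO and CD9KO arrays did not deviate together (correlations -0.0978 to 0.213). Of 5 CD151KO arrays, 1 matched its own number best, so the numbers were not taken to pair samples. Wild type arrays were not in that check. Wild type 1 and CD151KO 1 each had the highest neutrophil list level of their group (8.545 and 8.968). Both had the lowest glucocorticoid (10.68 and 10.51) and clock output levels (9.18 and 8.72). CD9KO 1 did so by small margins for neutrophil (8.06) and glucocorticoid genes (11.17), but not for clock output (9.52). What equal numbers share was not tested. With the replicate number as a block, 1234 genes passed (709 higher, 525 lower), 1041 of them shared with the fit without it; Fkbp5 (adjusted p = 0.0439) and Fam107a (0.0377) then passed, 14 named genes lost their call, and 8 genes of the glucocorticoid list passed in place of 4. Probe sets near background set only rough levels, since log2(signal + 16) understates the change of dim genes.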

Other observations

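No mesothelial gene of 14 passed by limma. Of their differences 13 were above 0, with a median of 0.20, and 6 had an unadjusted p under 0.05 (29.5% of all genes tested had one). B and plasma cell genes, of which none passed and 5 of 16 had an unadjusted p under 0.05, had a median of 0.24, with 13 of 16 above 0. Their mean level was 8.83 to 9.65 in CD151KO, 8.78 to 8.98 in CD9KO and 8.31 to 9.30 in wild type, so the groups overlapped. Mzb1 of that list did not overlap between the knockouts but did not pass (log2 difference 0.39, adjusted p = 0.0517 by limma). Iglv1, given above, passed but was not in that list.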
